A study of Ovis aries with 40 samples.

Results

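Proximal lung of fetal sheep was compared between 80 and 100 days of gestation, taking WT and CF fetuses together with genotype as a covariate, so that the change common to both genotypes was measured. The 8 libraries of this comparison, out of 40 libraries in the series, were chosen by their region and age labels, and all 24478 genes of the count tables were examined. They formed 4 groups of 2 libraries each, namely WT at 80 days, WT at 100 days, CF at 80 days and CF at 100 days. RNA was taken from pieces of frozen tissue that the labels call epithelial, and poly(A) transcripts were sequenced and counted per gene. The series follows the proximal and distal lung of both genotypes from 65 days to term. WT animals were naturally bred American Romney sheep. CF animals, also written CFTR-/-, carry a targeted disruption of *CFTR*, the gene of the chloride and bicarbonate channel that is mutated in cystic fibrosis, and were cloned by nuclear transfer from edited fetal fibroblasts of the same breed, so that cloning goes with the genotype in every comparison. Both WT libraries at 100 days carry the same animal label, and CF replicate 2 at 100 days shares its label with a WT fetus of 65 days, so p values here measure the spread between these libraries, some of which may be technical.

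The airway tree is laid down by branching during the pseudoglandular stage of lung development. In the canalicular stage that follows, the distal tubules widen, capillaries come to lie against the epithelium, and epithelial cells at the tips give way to early alveolar type 1 cells, which form the gas exchange surface, and type 2 cells, which make surfactant, the film of lipid and protein that lowers surface tension. In sheep, the interval studied here lies around the passage between these stages. Cartilage plates, smooth muscle, basal cells, secretory cells and ciliated cells mark the conducting airways.

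The WT libraries held between 25301277 and 36296096 counted reads and the CF libraries between 89854181 and 100338555. Depth thus goes with genotype, and the 2 cannot be told apart in the libraries as sequenced. A result with counts thinned to equal depth is given further below. Levels are given as CPM, the reads of a gene relative to all reads counted in its library, after TMM scaling, a normalization that assumes most genes do not change. Mitochondrial genes took 1.54% to 2.36% of the reads. CF replicate 2 at 80 days stood apart from the others, since 308 genes with at least 1 CPM were there at more than 2 times their level in every one of the other 7 libraries, against 6 to 34 such genes in each of those. Muscle genes were among them, as *TNNT2*, the cardiac troponin T, was at 39.6 CPM there and at 0 to 0.431 CPM in the other 7, and *COL1A1*, a chain of fibrillar collagen, was at 8639 CPM against 1622 to 2421 CPM. These genes were picked after their values were seen. Where it turned a list count or median given here, or moved it by more than 1.5 times, the value without it is given too. Marker genes did not set the proximal libraries apart from the distal ones, as the airway markers *SOX2*, *TP63*, *COL2A1* and *MYH11* were higher in the proximal than in the distal library in 5, 4, 2 and 4 of the 8 pairs of libraries, and the distal markers *SOX9*, *SFTPC* and *ETV5* in 3, 3 and 2 of them. The tissue was called epithelial in the labels, but the 39 measured genes of the endothelium list summed to between 3018 and 4274 CPM. In bulk tissue, fewer cells of a type and less RNA per cell cannot be told apart.

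The genes that rose between 80 and 100 days included 4 of 15 genes of alveolar type 2 cells, 2 of 12 of type 1 cells and 6 of 27 interferon-induced genes. Those that fell included 4 of 20 cartilage genes and 3 of 18 genes of distal tip progenitors. These counts take both WT libraries of 100 days, which share an animal label, as separate samples. Fewer genes of each of these lists passed with those libraries summed, as given below. Of 18751 genes tested by edgeR's quasi-likelihood test, 71 were higher at 100 days at an adjusted p of 0.05 or less (0.379% of those tested) and 43 were lower (0.229%), 114 in all (0.608%). In what follows, a gene rose, fell or passed the test only at this limit, and log2 fold changes are positive where 100 days is higher. Set beside each list count below, the shares over all genes are 0.379% higher and 0.229% lower. None of the 114 met the study's stricter limits for a DEG in this test of both genotypes together. Those limits were an adjusted p of 0.001 or less with a log2 fold change of at least 0.58 in size. The smallest adjusted p here was 0.00109. The study used the limits within each genotype, in its own edgeR test, and did report upregulated genes for this interval. Among these was *SLC1A1*, in both genotypes. An unadjusted p below 0.05 was reached by 2128 genes (11.3%), with 1080 of them higher (5.76%) and 1048 lower (5.59%) at the later age, and DESeq2 called 847 genes at 0.05 and 268 DEGs.

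The 114 genes had changes between 0.66 and 5.74 in size on the log2 scale, with a median of 1.6, against a median size of 0.21 over all genes tested. All 114 had the same sign in WT and in CF. Both libraries of 100 days lay above both of 80 days in each genotype for 71 of the 71 higher genes (5.61% of all genes did so), and below them for 42 of the 43 lower genes (5.48%). In 63 and 41 of them all 4 libraries of the later age lay clear of all 4 of the earlier one, whatever the genotype (2.84% and 2.72% of all genes). These counts rest on the same libraries that made the calls and only describe them. The change was larger in size in WT for 83 of the 114 and larger in CF for 31.

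**Figure D1:**
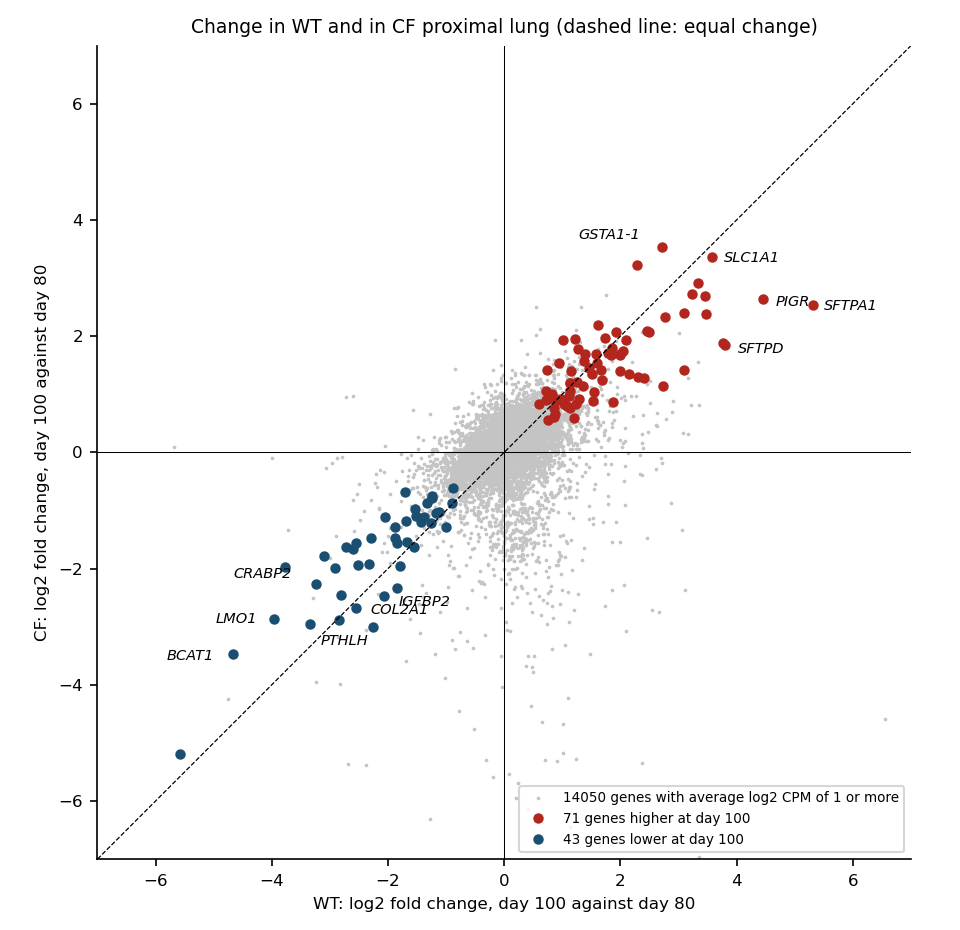
Log2 fold change from 80 to 100 days in WT (x axis) and in CF (y axis), for the 14050 genes whose average log2 CPM was at least 1 (grey; 7 of them lie outside the axes) and for the genes that passed the test for a shared change (red, higher; blue, lower). All 114 colored points lie in the quadrants where WT and CF share their sign. Grey points that spread downward from the center have a fall in CF with little change in WT. CF replicate 2 at 80 days, where 308 genes were above 2 times their level in every other library, enters the CF values. In edgeR's test no gene passed for a difference between genotypes.

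The number of calls depended on which libraries were used. Without 1 library it was 24 (WT replicate 1 at 80 days), 22 (WT replicate 2 at 80 days), 28 (WT replicate 1 at 100 days), 13 (WT replicate 2 at 100 days) or 64 (CF replicate 2 at 80 days), and it was between 103 and 141 without any of the other CF libraries. With the WT libraries of 100 days, which carry 1 animal label, summed into a single sample, 18 genes passed. Of the 44 called genes that were named by rule, 13 were among them, which were *SFTPB*, *CLDN18*, *SLC1A1*, *SLC39A8*, *GSTA1-1*, *OAS1*, *ISG15*, *RSAD2*, *MX1*, *COL28A1*, *COL2A1*, *IGFBP2* and *BCAT1*. The lists then kept 4 interferon-induced genes, 1 type 2, 1 type 1 and 1 sodium-coupled carrier gene and 1 collagen that rose, and 1 cartilage collagen and 1 gene of the IGF axis that fell. No other list held a gene that passed. In each of these fits all 114 kept their sign, but they were picked from the same libraries, so this only describes them. Without CF replicate 2 at 80 days, the library that stood apart, 52 of the 114 still passed. Of the same 44, 15 were lost with it, which were *SFTPA1*, *PIGR*, *COL4A3*, *SCNN1B*, *WIF1*, *ITGA9* and LOC101115527 among the higher and *PTHLH*, *COL9A2*, *DIO2*, *STK32B*, *GREB1*, *ETV5*, *FGF20* and *UHRF1* among the lower.

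Several genes for surfactant and other products of alveolar type 2 cells rose. Of 15 measured genes in this list, 4 rose (0.379% of all genes) and 1, the tip factor *ETV5* described below, fell (0.229%). The median log2 fold change was 0.71, against -0.01 over all genes. *SFTPA1* (chr25:35170066-35174178 on Oar_v4.0), which encodes surfactant protein A, a collectin that binds microbes and surfactant lipid, was at 0.875 and 1.2 CPM in WT and 4.54 and 3.14 CPM in CF at 80 days, and 44.8 and 38.2 CPM in WT and 21.8 and 22.6 CPM in CF at 100 days. All 4 libraries of the later age were above all 4 of the earlier one, and the fold was 14.1 (log2 fold change 3.81, SE 0.56, adjusted p = 0.0245). *SFTPD*, for surfactant protein D, lies beside it (chr25:35060767-35150456) and was at 6.60 and 7.15 CPM in WT and 26.0 and 27.5 CPM in CF at 80 days, and 103 and 89.1 CPM in WT and 77.4 and 116 CPM in CF at 100 days. The CF libraries of 80 days were above the WT ones, and every later library was above every earlier one (log2 fold change 2.80, SE 0.39, adjusted p = 0.0237). *SFTPB* encodes the hydrophobic protein without which surfactant films do not form, and it was at 275 and 221 CPM in WT and 231 and 212 CPM in CF at 80 days, and 590.1 and 608 CPM in WT and 808 and 708 CPM in CF at 100 days. It rose 2.88-fold with little spread within any group (log2 fold change 1.52, SE 0.15, adjusted p = 0.00601). *SLC34A2*, the phosphate transporter of the type 2 cell surface, was at 257 and 349.7 CPM in WT and 328 and 550.4 CPM in CF at 80 days, and 1358 and 1343 CPM in WT and 1229 and 994 CPM in CF at 100 days, and it rose as well (log2 fold change 1.75, SE 0.24, adjusted p = 0.0237).

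Not every type 2 gene moved in this way. *SFTPC*, the surfactant protein found only in type 2 cells and their precursors, was at 814 and 1027 CPM in WT and 996 and 689.8 CPM in CF at 80 days, and 913 and 943 CPM in WT and 533 and 854 CPM in CF at 100 days, with overlapping groups (log2 fold change -0.14, SE 0.20, adjusted p = 0.906). *LAMP3*, a membrane protein of lamellar bodies, had a log2 fold change of -0.17 (SE 0.15, adjusted p = 0.796), and *ABCA3*, the lipid pump of the same organelle, of 0.37 (SE 0.14, adjusted p = 0.327). *MUC1*, a surface mucin, and *NAPSA*, a protease that processes surfactant protein B, had values of 0.99 (SE 0.18, adjusted p = 0.0509) and 1.45 (SE 0.31, adjusted p = 0.0891) without passing. Summed over the list, the level was between 2822 and 3074 CPM in the 4 libraries of 80 days and between 4021 and 4384 CPM in those of 100 days. Without CF replicate 2 at 80 days, its median was 0.61, 3 members rose and none fell.

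**Figure D2:**
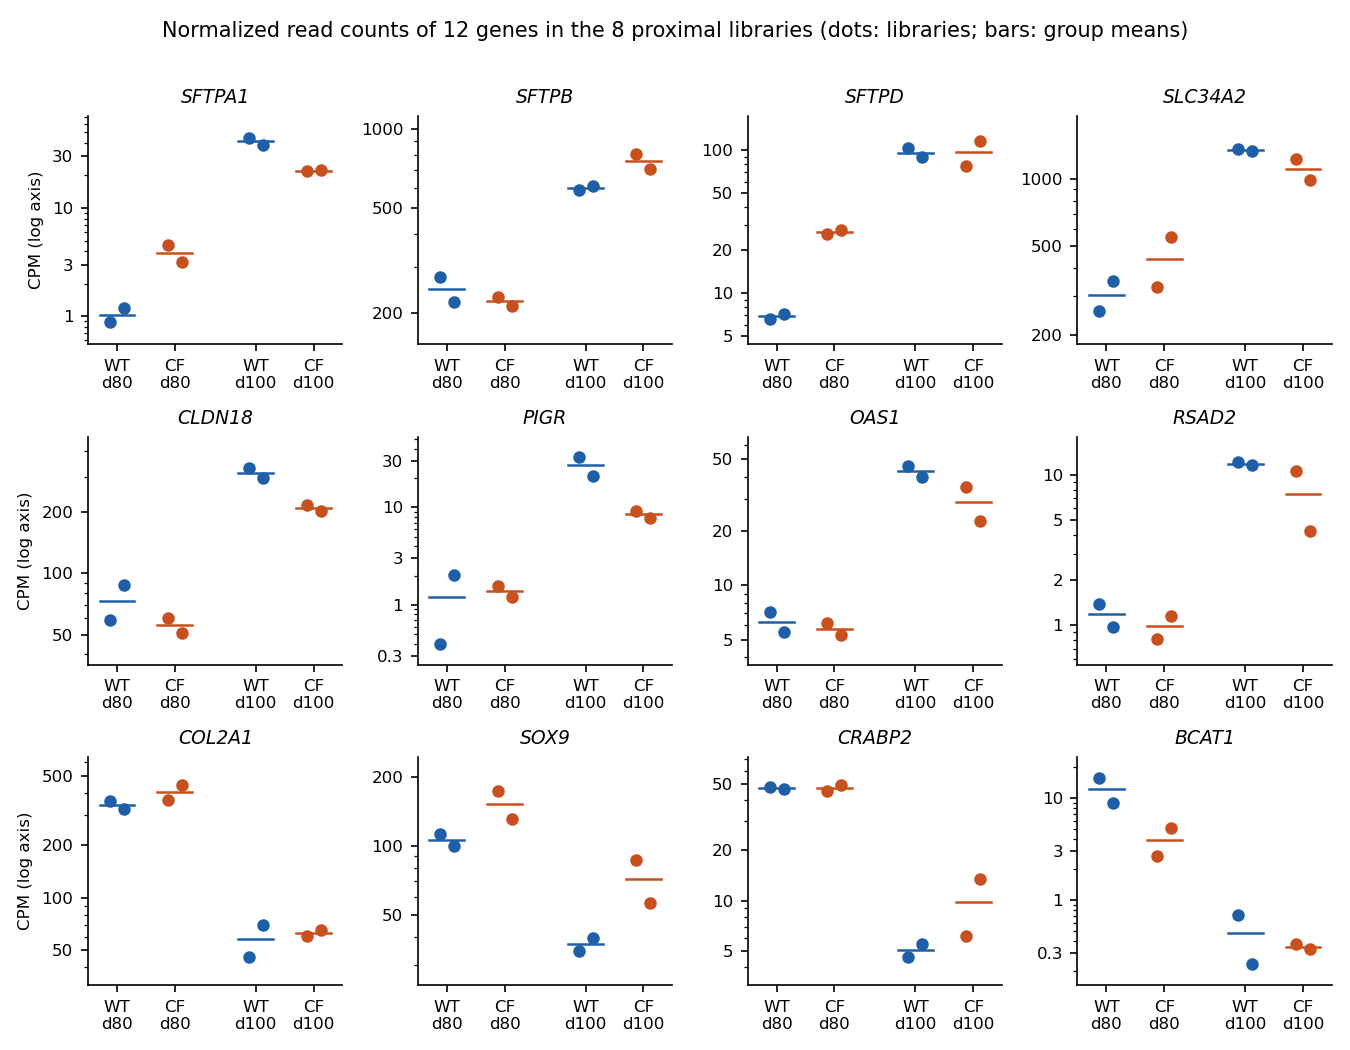
Normalized read counts (CPM, log axes) of 12 genes in the 8 proximal libraries, with 1 dot for each library and a bar at the mean of each group of 2. For each gene, all dots of 100 days lie on 1 side of all dots of 80 days, and the distance is smallest for *SOX9*, where the highest library of 100 days was at 86.7 CPM and the lowest of 80 days at 99.5 CPM.

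Of 12 markers of alveolar type 1 cells, 2 rose (0.379% of all genes) and none fell (0.229%). The median log2 fold change was 0.90. *CLDN18* (chr1:249017793-249042725), a tight junction claudin of the alveolar epithelium, was at 58.7 and 87.9 CPM in WT and 60.0 and 50.8 CPM in CF at 80 days, and 332 and 294 CPM in WT and 219 and 203 CPM in CF at 100 days. It had a 4.03-fold change, with an error that was small relative to that change (log2 fold change 2.01, SE 0.15, adjusted p = 0.00208). *GPRC5A*, an orphan receptor induced by retinoic acid and abundant in alveolar epithelium, was at 37.5 and 39.7 CPM in WT and 53.5 and 21.1 CPM in CF at 80 days, and 109.8 and 126 CPM in WT and 160.5 and 181 CPM in CF at 100 days (log2 fold change 1.90, SE 0.27, adjusted p = 0.0237). The spread of *GPRC5A* was larger in the CF libraries of 80 days than in the other groups. *HOPX*, a homeodomain cofactor of type 1 cells, had a log2 fold change of 1.3 (SE 0.26, adjusted p = 0.0771), *AQP5*, their water channel, of 1.93 (SE 0.49, adjusted p = 0.142), and *AGER*, their most familiar surface receptor, of 0.92 (SE 0.37, adjusted p = 0.377). Its members summed to 636.7 to 1150 CPM at 80 days and 1741 to 2047 CPM at 100 days, with no overlap.

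*SLC1A1*, *SLC39A8*, *PIGR* and *GSTA1-1* were among the genes that rose most. *SLC1A1* (chr2:72318327-72393056), a sodium-coupled transporter of glutamate and cysteine, was at 1.99 and 2.61 CPM in WT and 4.90 and 2.62 CPM in CF at 80 days, and 30.7 and 24.2 CPM in WT and 48.2 and 28.6 CPM in CF at 100 days. Its 11.0-fold rise was nearly equal in the genotypes, with log2 fold changes of 3.57 in WT and 3.35 in CF (log2 fold change 3.46, SE 0.28, adjusted p = 0.00208). *SLC39A8*, a zinc and manganese importer, was at 11.5 and 9.73 CPM in WT and 16.6 and 8.69 CPM in CF at 80 days, and 119.5 and 116 CPM in WT and 71.0 and 59.9 CPM in CF at 100 days (log2 fold change 2.91, SE 0.28, adjusted p = 0.00574). The later WT libraries were the highest of the 8. *PIGR*, the receptor that carries polymeric immunoglobulin across mucosal epithelium, was at 0.398 and 2.02 CPM in WT and 1.55 and 1.2 CPM in CF at 80 days, and 32.9 and 21.0 CPM in WT and 9.27 and 7.81 CPM in CF at 100 days (log2 fold change 3.51, SE 0.55, adjusted p = 0.031). All later libraries were higher, and the rise was from a low level. *GSTA1-1*, a glutathione transferase that detoxifies electrophiles, was at 17.3 and 20.5 CPM in WT and 10.4 and 4.30 CPM in CF at 80 days, and 134 and 113 CPM in WT and 68.8 and 101 CPM in CF at 100 days (log2 fold change 3.12, SE 0.31, adjusted p = 0.00593). Its family has near-identical copies, between which the authors' counting could divide reads. Among 59 measured solute carriers of the sodium-coupled families, *SLC1A1* and *SLC34A2* were the only genes to pass, and the median was -0.11, or 0.05 without CF replicate 2 at 80 days.

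Of 23 measured genes for chloride, sodium and water transport, 2 rose (0.379% of all genes) and none fell (0.229%), with a median of -0.05. When CF replicate 2 at 80 days was left out, the median was 0.05, and *ANO1* and the water channel *AQP1* were the ones to pass. *SCNN1B*, the beta subunit of the epithelial sodium channel through which the lung later clears its fluid, was at 3.62 and 5.16 CPM in WT and 3.98 and 2.14 CPM in CF at 80 days, and 16.6 and 15.2 CPM in WT and 6.80 and 14.5 CPM in CF at 100 days (log2 fold change 1.82, SE 0.31, adjusted p = 0.0429). The later libraries were all above the earlier ones, and CF replicate 1 was the lowest of them. *ANO1*, a calcium-activated chloride channel, was at 34.6 and 33.2 CPM in WT and 50.8 and 57.7 CPM in CF at 80 days, and 78.4 and 77.7 CPM in WT and 80.7 and 83.3 CPM in CF at 100 days (log2 fold change 0.90, SE 0.14, adjusted p = 0.0324), and the age groups did not overlap. *SCNN1A*, the alpha subunit, had a log2 fold change of 0.67 (SE 0.30, adjusted p = 0.446), and *SCNN1G*, the gamma subunit, of 1.37 (SE 0.46, adjusted p = 0.267). *CFTR* itself was at 45.3 and 45.9 CPM in WT and 17.2 and 32.8 CPM in CF at 80 days, and 26.5 and 22.6 CPM in WT and 16.9 and 13.3 CPM in CF at 100 days, and did not pass (log2 fold change -0.81, SE 0.21, adjusted p = 0.149). Reads over the whole gene do not check the edit, which changes a short stretch of it. *SLC26A9*, an anion channel of airway epithelium, had -0.47 (SE 0.29, adjusted p = 0.625). *TJP1*, which encodes the tight junction scaffold ZO-1, had 0.41 (SE 0.17, adjusted p = 0.397).

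Interferon-induced genes formed the list with the most members that rose. Of 27 measured, 6 rose (22.2% of the list against 0.379% of all genes), none fell, and the median log2 fold change was 0.92, with 1.44 in WT and 0.55 in CF. *OAS1* (chr17:61037615-61063301), which senses double-stranded RNA and starts its decay, was at 7.08 and 5.51 CPM in WT and 6.2 and 5.28 CPM in CF at 80 days, and 46.0 and 40.0 CPM in WT and 35.0 and 22.7 CPM in CF at 100 days. The libraries of 80 days were close together, and all those of 100 days were higher (log2 fold change 2.55, SE 0.21, adjusted p = 0.00208). *ISG15*, a ubiquitin-like modifier, was at 1.35 and 1.01 CPM in WT and 0.649 and 0.540 CPM in CF at 80 days, and 12.2 and 9.99 CPM in WT and 3.85 and 4.0 CPM in CF at 100 days (log2 fold change 2.97, SE 0.26, adjusted p = 0.00333). *RSAD2*, also called viperin, was at 1.39 and 0.976 CPM in WT and 0.816 and 1.15 CPM in CF at 80 days, and 12.1 and 11.6 CPM in WT and 10.6 and 4.27 CPM in CF at 100 days (log2 fold change 3.12, SE 0.35, adjusted p = 0.00926). In both of these the later CF libraries were below the later WT ones. *MX1*, an antiviral GTPase, was at 8.03 and 6.26 CPM in WT and 5.96 and 5.54 CPM in CF at 80 days, and 40.3 and 38.5 CPM in WT and 31.4 and 17.6 CPM in CF at 100 days (log2 fold change 2.28, SE 0.22, adjusted p = 0.00544). *DDX58*, the RNA sensor RIG-I, and *IRF9*, a subunit of the factor that type I interferon activates, completed the 6 with 1.69 (SE 0.24, adjusted p = 0.0237) and 1.2 (SE 0.18, adjusted p = 0.0275).

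Of all 27 members, these 6 included, 17 had a higher and 2 a lower level at an unadjusted p below 0.05 (5.76% and 5.59% of all genes), and 4 had a negative value. *IFI6*, an antiviral protein of the endoplasmic reticulum, had 1.88 (SE 0.44, adjusted p = 0.114), and *IRF7*, a factor that amplifies the response, 1.42 (SE 0.48, adjusted p = 0.276). The chemokines *CXCL10* and *CXCL11*, ligands of the chemokine receptor CXCR3 that interferon gamma induces, went the other way. *CXCL10* was at 112 and 62.6 CPM in WT and 10.2 and 17.6 CPM in CF at 80 days, and 6.12 and 7.23 CPM in WT and 4.04 and 7.01 CPM in CF at 100 days, and did not pass (log2 fold change -2.51, SE 0.53, adjusted p = 0.0849). The WT libraries of 80 days were far above the rest. *CXCL11* was at 3.98 and 4.06 CPM in WT and 0.590 and 0.628 CPM in CF at 80 days, and 0.540 and 0.393 CPM in WT and 0.338 and 0.243 CPM in CF at 100 days (log2 fold change -2.06, SE 0.49, adjusted p = 0.118). The summed level of the list in WT was 522 and 575.6 CPM at 80 days and 748.6 and 782.6 CPM at 100 days, and in CF it was 402.2 and 416.3 CPM and then 504.2 and 603.1 CPM. Leukocyte lists held no gene that passed in either direction, with medians of -0.11 for 22 myeloid and 0.06 for 23 lymphoid genes, and 4 of 11 antigen presentation genes, none passing, were higher at an unadjusted p below 0.05 (5.76% of all genes). Without CF replicate 2 at 80 days the myeloid median was 0.01, the lymphoid median 0.17, and 5 interferon-induced genes rose.

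**Figure D3:**
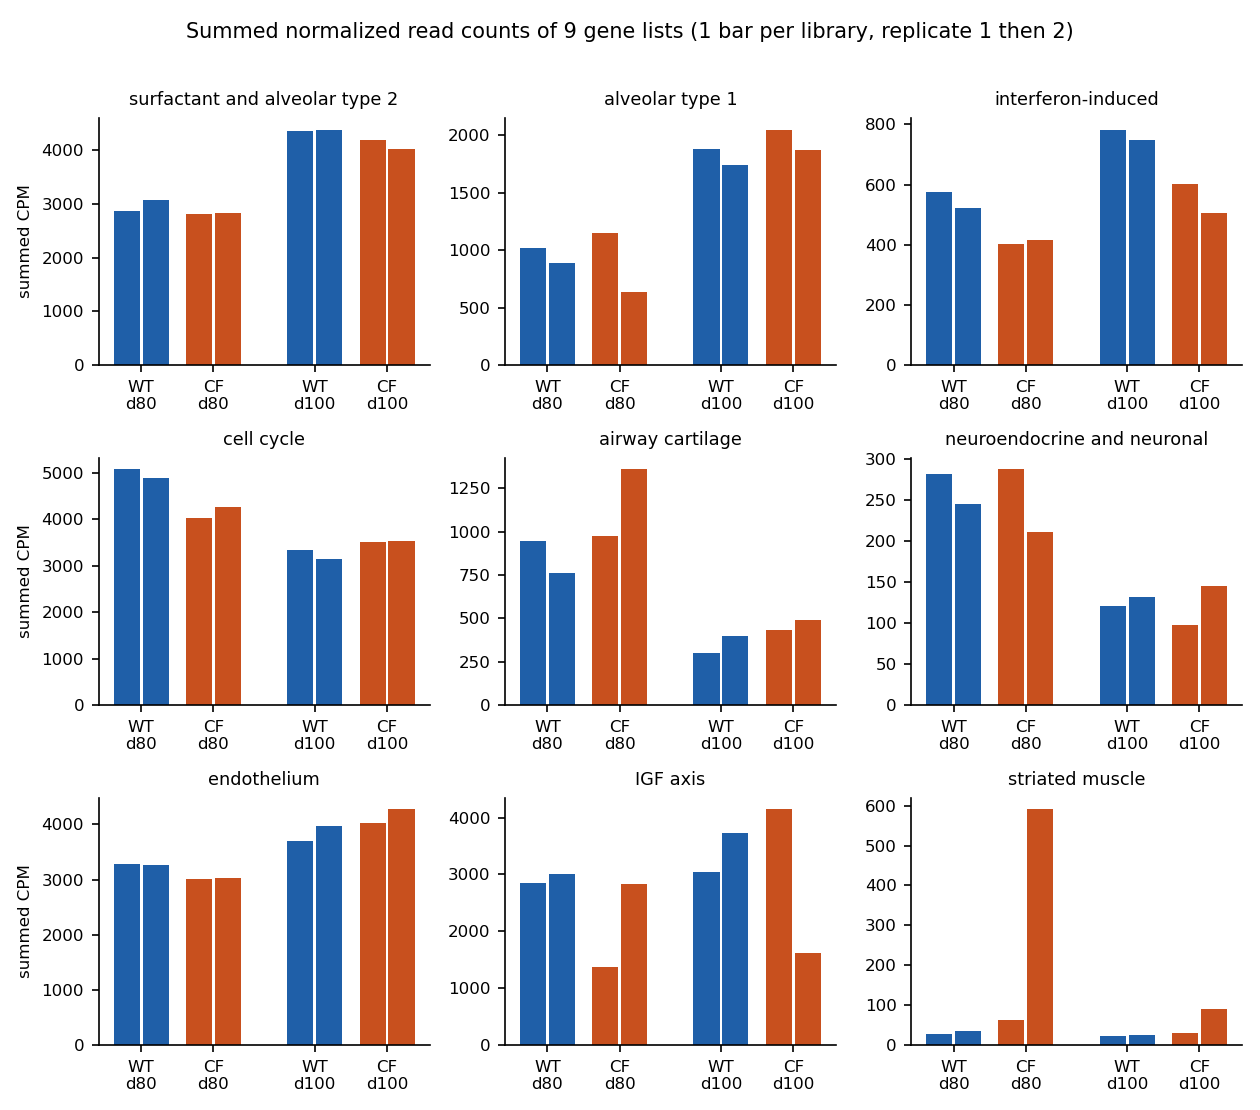
Summed CPM of the measured genes of 9 lists in each of the 8 libraries, drawn from 0, with replicate 1 and 2 side by side in each group (WT blue, CF orange). The bars of surfactant and type 1 genes are higher at 100 days and those of cell cycle, cartilage and neuroendocrine genes lower in both genotypes, while striated muscle genes stand out in CF replicate 2 at 80 days and IGF genes are low in 1 CF library of each age.

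Collagens changed in both directions. Of 42 measured, 3 rose (0.379% of all genes) and 2, the cartilage collagens *COL2A1* and *COL9A2*, fell (0.229%), with a median of -0.16. It was 0.30 in WT and -0.53 in CF. *COL28A1*, a beaded collagen of basement membranes, was at 1.79 and 3.68 CPM in WT and 8.2 and 4.38 CPM in CF at 80 days, and 24.7 and 22.4 CPM in WT and 32.6 and 33.5 CPM in CF at 100 days (log2 fold change 2.73, SE 0.30, adjusted p = 0.00926). *COL4A3*, a chain of the alveolar and glomerular basement membrane, was at 3.86 and 4.12 CPM in WT and 7.51 and 4.24 CPM in CF at 80 days, and 24.2 and 20.8 CPM in WT and 35.9 and 13.4 CPM in CF at 100 days (log2 fold change 2.28, SE 0.33, adjusted p = 0.0237). The later libraries were above the earlier ones in both genes. Its partner chain in the same trimer, *COL4A4*, had 1.35 (SE 0.31, adjusted p = 0.112). *COL15A1*, a collagen of vascular and muscular basement membranes, was at 298 and 241 CPM in WT and 276 and 309.6 CPM in CF at 80 days, and 514 and 548 CPM in WT and 595 and 505 CPM in CF at 100 days (log2 fold change 0.94, SE 0.13, adjusted p = 0.0237). The summed level of the list was 15000 to 15840 CPM in 3 libraries of 80 days and 36030 CPM in CF replicate 2 of that age, against 19330 to 20450 CPM at 100 days. Without that library the median was 0.29, so that its sign turned, and 2 collagens rose and 1 fell.

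Among 26 integrin subunits 3 rose and none fell, with a median of 0.10 (without CF replicate 2 at 80 days, 2 rose and the median was 0.22). *ITGB6*, the epithelial subunit that activates latent TGF-beta, was at 11.4 and 12.4 CPM in WT and 8.88 and 9.87 CPM in CF at 80 days, and 27.9 and 24.6 CPM in WT and 21.5 and 21.2 CPM in CF at 100 days (log2 fold change 1.16, SE 0.14, adjusted p = 0.0133). *ITGA7*, a laminin receptor subunit, was at 13.6 and 14.3 CPM in WT and 37.0 and 46.6 CPM in CF at 80 days, and 29.7 and 30.7 CPM in WT and 70.7 and 93.0 CPM in CF at 100 days (log2 fold change 1.04, SE 0.14, adjusted p = 0.021), and CF libraries were above WT libraries of the same age. *ITGA9*, which binds tenascin, had 0.72 (SE 0.11, adjusted p = 0.0293). Of 22 elastic fiber genes none passed, and *ELN*, which encodes elastin, had 0.36 (SE 0.34, adjusted p = 0.812).

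Cartilage held the list with the most genes that fell. Of 20 measured, 4 fell (20% of the list against 0.229% of all genes), none rose, and the median was -1.03. *COL2A1* (chr3:138202874-138233138), the fibrillar collagen of cartilage, was at 359.5 and 323 CPM in WT and 364 and 441 CPM in CF at 80 days, and 46.1 and 69.8 CPM in WT and 60.2 and 65.4 CPM in CF at 100 days. It had the smallest p of all genes tested and fell 6.14-fold, with log2 fold changes of -2.56 in WT and -2.68 in CF (log2 fold change -2.62, SE 0.16, adjusted p = 0.00109). *COL9A2*, a collagen that decorates those fibrils, was at 5.57 and 3.65 CPM in WT and 8.99 and 21.9 CPM in CF at 80 days, and 0.600 and 1.34 CPM in WT and 1.69 and 2.15 CPM in CF at 100 days (log2 fold change -2.66, SE 0.40, adjusted p = 0.0282). CF replicate 2 at 80 days held its highest value. *LECT1*, for chondromodulin, an inhibitor of vessel growth in cartilage, was at 173 and 109 CPM in WT and 119 and 65.7 CPM in CF at 80 days, and 54.3 and 63.1 CPM in WT and 34.6 and 44.3 CPM in CF at 100 days (log2 fold change -1.24, SE 0.22, adjusted p = 0.0476). *SOX9*, the factor that drives cartilage collagens and also marks the distal epithelial tips, was at 113 and 99.5 CPM in WT and 174 and 132 CPM in CF at 80 days, and 34.6 and 39.5 CPM in WT and 86.7 and 56.0 CPM in CF at 100 days (log2 fold change -1.31, SE 0.18, adjusted p = 0.0237). In *LECT1* and *SOX9* every later library was below every earlier one, by little in *LECT1*. *ACAN*, for aggrecan, the main proteoglycan of cartilage, did not pass, with -0.86 (SE 0.44, adjusted p = 0.532). The list summed to 759.9 to 1359 CPM at 80 days and 301.7 to 491.7 CPM at 100 days, with no overlap. Without CF replicate 2 at 80 days 3 cartilage genes fell and the median was -0.73.

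Some genes of the distal tip progenitor fell. Of 18 measured, 3 fell (0.229% of all genes), none rose (0.379%), and the median was -0.17. These were *SOX9* and a pair of genes for branching signals. *ETV5*, a target of FGF signaling in the tips, was at 408 and 412 CPM in WT and 291 and 308 CPM in CF at 80 days, and 178 and 166 CPM in WT and 210.5 and 146 CPM in CF at 100 days, which is a 2.00-fold fall (log2 fold change -1.0, SE 0.16, adjusted p = 0.0345). *WNT7B*, an epithelial WNT ligand that supports growth of the mesenchyme, was at 17.9 and 18.4 CPM in WT and 21.3 and 18.7 CPM in CF at 80 days, and 4.65 and 4.13 CPM in WT and 8.88 and 9.63 CPM in CF at 100 days (log2 fold change -1.57, SE 0.22, adjusted p = 0.0237). In both genes the age groups were apart. *ETV4*, the close relative of *ETV5*, had -1.08 (SE 0.20, adjusted p = 0.0603). *NKX2-1*, the master regulator of lung epithelium, is in the same list and had 0.51 (SE 0.21, adjusted p = 0.388). With CF replicate 2 at 80 days left out, *SOX9* and *WNT7B* still passed and the median was -0.22.

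Members of signaling pathways that passed the test were few. Of 51 WNT genes 1 rose and 1, *WNT7B*, fell, with a median of -0.07. With CF replicate 2 at 80 days left out, none rose and the median was 0.11. The gene that rose, *WIF1*, is a secreted WNT inhibitor and was at 7.04 and 10.3 CPM in WT and 30.2 and 29.5 CPM in CF at 80 days, and 17.5 and 20.5 CPM in WT and 58.1 and 65.3 CPM in CF at 100 days (log2 fold change 1.09, SE 0.15, adjusted p = 0.0237). CF was above WT at each age, so the age groups overlapped across genotypes but not within them. In the FGF pathway 2 of 21 genes fell, namely *ETV5* and *FGF20*, a ligand, which was at 8.35 and 11.1 CPM in WT and 4.17 and 5.79 CPM in CF at 80 days, and 2.91 and 3.22 CPM in WT and 1.58 and 1.83 CPM in CF at 100 days (log2 fold change -1.61, SE 0.23, adjusted p = 0.0237). None of these 21 passed without CF replicate 2 at 80 days. *FGF18*, a ligand made by the mesenchyme, had 2.17 (SE 0.49, adjusted p = 0.102). Of 15 retinoic acid genes 1 fell, and of 16 genes of the IGF axis 1 fell. *CRABP2*, which carries retinoic acid to its receptor in the nucleus, was at 48.0 and 46.6 CPM in WT and 45.1 and 49.5 CPM in CF at 80 days, and 4.59 and 5.50 CPM in WT and 6.17 and 13.5 CPM in CF at 100 days (log2 fold change -2.74, SE 0.30, adjusted p = 0.00926). Its values at 80 days were nearly the same in all 4 libraries. *IGFBP2*, a binding protein that limits IGF action, was at 62.1 and 57.2 CPM in WT and 54.1 and 63.7 CPM in CF at 80 days, and 13.3 and 15.1 CPM in WT and 6.46 and 14.8 CPM in CF at 100 days (log2 fold change -2.27, SE 0.25, adjusted p = 0.00926), again with close values at 80 days. Hedgehog (16 measured), Notch (17) and TGF-beta and BMP (36) lists had no gene that passed, with medians of 0.04, 0.25 and 0.25. In the TGF-beta and BMP list 10 genes were higher at an unadjusted p below 0.05 (5.76% of all genes) and none lower (5.59%). Its smallest p belonged to *BMP2*, a ligand, with 1.17 (SE 0.24, adjusted p = 0.0771).

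The genes with the largest decreases were not all in a list. *BCAT1* (chr3:189643355-189761927), the cytosolic enzyme that transaminates branched-chain amino acids, was at 15.8 and 8.97 CPM in WT and 2.71 and 5.11 CPM in CF at 80 days, and 0.720 and 0.236 CPM in WT and 0.369 and 0.331 CPM in CF at 100 days. It fell 16.5-fold to below 1 CPM in all 4 later libraries (log2 fold change -4.04, SE 0.47, adjusted p = 0.0116). *LMO1*, a nuclear adaptor protein of developing neurons and tumors, was at 5.33 and 5.04 CPM in WT and 4.42 and 5.63 CPM in CF at 80 days, and 0.240 and 0.432 CPM in WT and 0.369 and 1.0 CPM in CF at 100 days (log2 fold change -3.36, SE 0.44, adjusted p = 0.021). Its level was even across the 4 earlier libraries. *PTHLH*, for the parathyroid hormone-related protein through which lung epithelium signals to fibroblasts, was at 13.7 and 25.9 CPM in WT and 3.77 and 7.67 CPM in CF at 80 days, and 1.86 and 2.04 CPM in WT and 0.266 and 1.2 CPM in CF at 100 days (log2 fold change -3.15, SE 0.49, adjusted p = 0.0288). The level of *PTHLH* at 80 days was higher in both WT libraries than in either CF library, and the log2 fold changes were -3.34 in WT and -2.96 in CF. *HS6ST2*, a sulfotransferase that modifies heparan sulfate, was at 102 and 104 CPM in WT and 45.0 and 63.0 CPM in CF at 80 days, and 16.2 and 14.6 CPM in WT and 18.2 and 16.6 CPM in CF at 100 days (log2 fold change -2.18, SE 0.24, adjusted p = 0.00926). *GREB1*, known as a target of estrogen receptor, had -2.21 (SE 0.35, adjusted p = 0.031), *DIO2*, which activates thyroid hormone, had -2.43 (SE 0.35, adjusted p = 0.0237), and the synaptic adhesion protein *CLSTN3* and the kinase *STK32B* had -2.63 (SE 0.31, adjusted p = 0.0125) and -2.41 (SE 0.36, adjusted p = 0.0275).

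Cell cycle genes had small negative values nearly throughout. Of 69 measured, 68 had a negative log2 fold change (50.8% of all genes did) and 44 an unadjusted p below 0.05 (5.59% of all genes with a lower level), but 1 passed (0.229%), and the median was -0.42. That gene was *UHRF1*, which keeps DNA methylation through replication, at 144 and 107 CPM in WT and 151 and 147 CPM in CF at 80 days, and 66.7 and 69.9 CPM in WT and 98.5 and 96.3 CPM in CF at 100 days (log2 fold change -0.74, SE 0.13, adjusted p = 0.0425). *TYMS*, thymidylate synthase, had -0.65 (SE 0.13, adjusted p = 0.0771), *MCM3*, a subunit of the replicative helicase, -0.56 (SE 0.12, adjusted p = 0.0905), and *MKI67*, the proliferation antigen, -0.30 (SE 0.33, adjusted p = 0.855). The largest and the smallest changes in the list were -0.88 for *CDC6*, a licensing factor of replication, and 0.08 for *POLA1*, a DNA polymerase subunit. The median was -0.65 in WT and -0.23 in CF, and every one of the 69 genes had the more negative value in WT. In WT the summed level was 4893 and 5068 CPM at 80 days and 3144 and 3342 CPM at 100 days, and in CF it was 4014 and 4270 CPM and then 3511 and 3526 CPM. The age groups did not overlap, and CF lay between the WT groups at both ages. Without CF replicate 2 at 80 days no cell cycle gene passed and the median was -0.48.

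**Figure D4:**
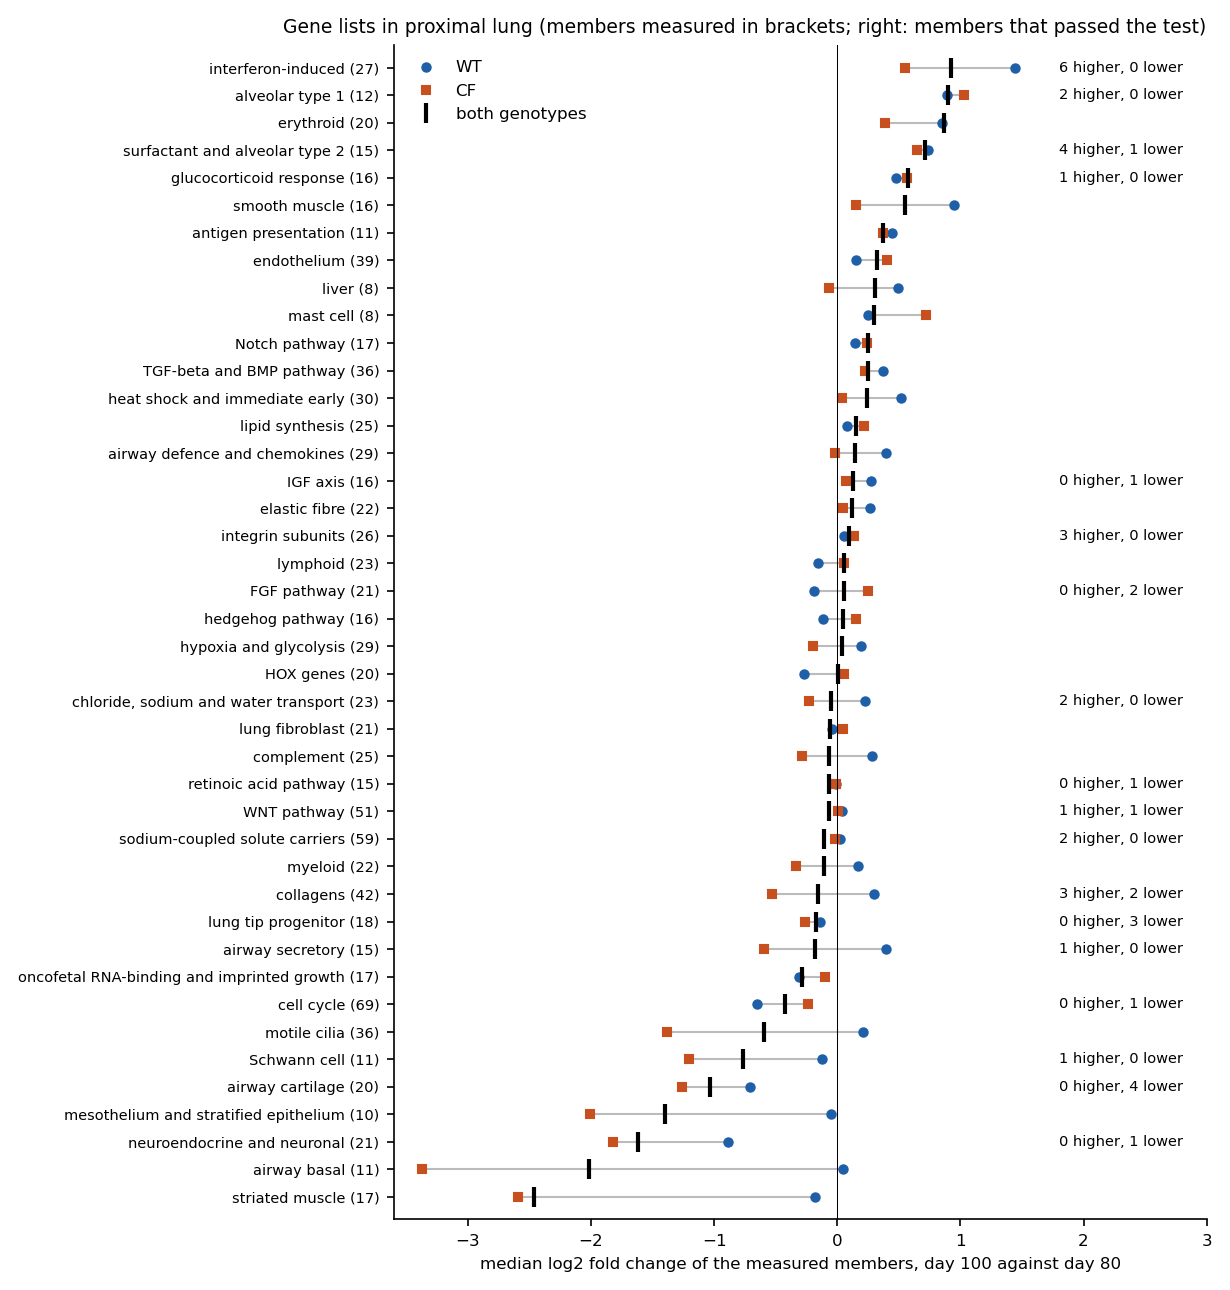
Median log2 fold change from 80 to 100 days of the measured genes of 42 lists in WT (blue circles), CF (orange squares) and both genotypes together (black bars), in order of the last. The numbers in brackets are the genes measured and those at the right the genes that passed. WT and CF lie close together for type 1, type 2 and glucocorticoid lists. They lie far apart for basal, striated muscle, stratified epithelium and ciliated lists, with the CF median far below that of WT. CF replicate 2 at 80 days enters these CF medians. Without it the striated muscle median of both genotypes together went from -2.47 to 0.26.

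Vessel and smooth muscle lists had positive medians with no gene passing. Of 39 endothelial genes, 14 had an unadjusted p below 0.05 with a higher level and 2 with a lower one (5.76% and 5.59% of all genes), with a median of 0.32. When CF replicate 2 at 80 days was left out, 1 of them, *AQP1*, passed as higher. *VEGFA*, the growth factor of vessels, was at 58.5 and 42.8 CPM in WT and 76.4 and 81.7 CPM in CF at 80 days, and 71.8 and 79.7 CPM in WT and 157 and 136 CPM in CF at 100 days (log2 fold change 0.74, SE 0.14, adjusted p = 0.0614). *PECAM1*, a junction protein of all endothelium, had 0.53 (SE 0.11, adjusted p = 0.0865). The summed level of the list was 3018 to 3288 CPM at 80 days and 3700 to 4274 CPM at 100 days, with no overlap. Of 16 smooth muscle genes 9 were higher at that limit and none lower, and the median was 0.55, with 0.95 in WT and 0.15 in CF. *ACTA2*, smooth muscle actin, was at 65.8 and 107 CPM in WT and 465 and 241 CPM in CF at 80 days, and 319 and 303 CPM in WT and 405 and 601 CPM in CF at 100 days (log2 fold change 1.18, SE 0.34, adjusted p = 0.194). The WT libraries of 80 days held the lowest values of the 8. Of 16 glucocorticoid response genes 1 rose, with a median of 0.58, and it was *KLF9*, a transcription factor induced by cortisol, at 7.56 and 6.74 CPM in WT and 8.89 and 6.14 CPM in CF at 80 days, and 20.8 and 19.7 CPM in WT and 22.2 and 16.3 CPM in CF at 100 days (log2 fold change 1.43, SE 0.19, adjusted p = 0.021). *FKBP5*, another gene that cortisol induces, had -0.78 (SE 0.18, adjusted p = 0.101).

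The secretory, ciliary and basal cell lists of the conducting airway held 1 gene that passed. Of 15 secretory genes 1 rose, and this was *PIGR*. The median was -0.18, with 0.40 in WT and -0.59 in CF. *SCGB1A1*, the club cell protein, was at 0 and 0.283 CPM in WT and 0.531 and 0.196 CPM in CF at 80 days, and 0.720 and 1.10 CPM in WT and 0.594 and 1.19 CPM in CF at 100 days (log2 fold change 1.86, SE 0.78, adjusted p = 0.402), which is close to nothing at both ages. *SCGB3A2*, an earlier secretoglobin, was at 3.74 and 12.5 CPM in WT and 10.3 and 147 CPM in CF at 80 days, and 75.0 and 8.69 CPM in WT and 1.33 and 2.54 CPM in CF at 100 days (log2 fold change -1.48, SE 2.69, adjusted p = 0.931), and single libraries were high at each age. *BPIFB1* and *WFDC2*, secreted defense proteins, had -0.28 (SE 2.32, adjusted p = 0.984) and -0.01 (SE 0.39, adjusted p = 0.996). *BPIFA1*, a relative of *BPIFB1*, held too few reads to be tested. Of 36 ciliary genes none passed, and the median was -0.59, with 0.21 in WT and -1.39 in CF. Of 11 basal cell genes none passed, and the median was -2.02, with 0.04 in WT and -3.38 in CF.

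*TP63* and *KRT5* of the basal list, and striated muscle genes as a sum, were highest in the CF library that stood apart. *TP63*, the basal cell factor, was at 0.636 and 2.42 CPM in WT and 2.95 and 19.6 CPM in CF at 80 days, and 1.92 and 1.34 CPM in WT and 0.328 and 0.155 CPM in CF at 100 days. *KRT5*, the basal keratin, was at 0.676 and 7.46 CPM in WT and 3.79 and 34.3 CPM in CF at 80 days, and 2.16 and 1.18 CPM in WT and 0.235 and 0.243 CPM in CF at 100 days. Both were lowest in the later CF libraries. The sum of the basal list, most of it from the adhesion protein *BCAM*, did not follow them. It was 379.3 CPM in the library that stood apart and 432.4 CPM in CF replicate 2 at 100 days. The summed level of 17 striated muscle genes was 590.7 CPM in that library and 23.5 to 90.79 CPM in the other 7, and none of these genes passed. Without it, the median of the striated muscle list went from -2.47 to 0.26, of the basal list from -2.02 to -0.84, of the ciliary list from -0.59 to -0.48 and of the secretory list from -0.18 to -0.10, and no gene of these lists passed.

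The nerve and neuroendocrine list held 1 gene that fell. Of 21 measured, 9 had an unadjusted p below 0.05 with a lower level (5.59% of all genes), none a higher one, and the median was -1.61. The gene that fell, *UCHL1*, a ubiquitin hydrolase of neurons and neuroendocrine cells, was at 213 and 166 CPM in WT and 201 and 128 CPM in CF at 80 days, and 80.4 and 87.9 CPM in WT and 63.6 and 95.6 CPM in CF at 100 days (log2 fold change -1.11, SE 0.19, adjusted p = 0.0429). *SCG5*, a chaperone of secretory granules, had -1.27 (SE 0.24, adjusted p = 0.0649), and *CHGA*, a granule protein of neuroendocrine cells, -0.78 (SE 0.36, adjusted p = 0.474). The summed level was 210.4 to 286.8 CPM at 80 days and 96.92 to 144.8 CPM at 100 days, with no overlap. In the Schwann cell list of 11, 1 gene rose, LOC101115527, whose gene ID RefSeq now names *MAL*, a protein of myelin and of apical membranes in epithelium. It was at 4.89 and 3.90 CPM in WT and 2.62 and 1.71 CPM in CF at 80 days, and 8.99 and 11.5 CPM in WT and 6.90 and 9.86 CPM in CF at 100 days (log2 fold change 1.59, SE 0.28, adjusted p = 0.0479). The other 10 Schwann cell genes did not pass, none of the 11 did without CF replicate 2 at 80 days, and the defining factor *SOX10* had -1.62 (SE 1.04, adjusted p = 0.658).

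The change was compared between genotypes gene by gene. No gene passed in edgeR's test of the difference (0 of 18751, smallest adjusted p = 0.166), 703 had an unadjusted p below 0.05 (3.75%), and DESeq2 called 53. A p that misses the limit does not show that the genotypes changed alike, since changes of 1 on the log2 scale planted in simulated counts were recovered in 0% of genes for this test and in 39% for the shared change. Among the 114 genes, 16 had an unadjusted p below 0.05 for the difference. *SFTPA1* changed by 5.31 in WT and 2.53 in CF (difference -2.79, unadjusted p = 1.23e-04, adjusted p = 0.288), and *SFTPD* by 3.81 and 1.85 (difference -1.95, unadjusted p = 2.60e-04, adjusted p = 0.487). Both had higher values in CF than in WT at 80 days. *ASIP*, which encodes agouti, a blocker of melanocortin signaling, had the smallest p of all. It was at 70.0 and 59.5 CPM in WT and 181 and 119 CPM in CF at 80 days, and 1.53 and 0.944 CPM in WT and 101 and 216 CPM in CF at 100 days (difference 5.77, adjusted p = 0.166), so that among these 8 it was near 0 in the WT libraries of 100 days, which share an animal label. Scaled over the 20 proximal libraries, it was also low in 1 WT library of 65 days (0.765 CPM, against 64.3 CPM in its replicate) and in 1 of 120 days (1.27 CPM, against 64.8 CPM). *LUZP2* and *HSPA1A*, a heat shock protein, had opposite signs in the genotypes, with -2.72 and 1.53 in WT and 0.95 and -1.14 in CF. Over the 14050 genes whose average log2 CPM was at least 1, Pearson's r between the changes in WT and in CF was 0.29, Spearman's rho was 0.40, and 64.1% shared their sign. That is a description across genes, which are not independent replicates.

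Distal lung of the same fetuses, by label, was compared for the same interval. All 114 genes had the same sign in distal lung, where 111 of them passed as well, against 6.97% and 6.43% of 18663 genes that passed there as higher and lower. Since the fetuses are shared, this is no independent replicate. Tested within pairs of libraries, no gene passed for a difference in its change between the regions (0 of 19345, smallest adjusted p = 1), 301 had an unadjusted p below 0.05 (1.56%), and DESeq2 called 2. In simulated counts this test recovered 39% of planted differences of 1 on the log2 scale, so a gene that did not pass may still differ. Of the 114 genes, 14 had an unadjusted p below 0.05. The smallest unadjusted p belonged to *COL9A2*, which changed by -2.66 in proximal and by -1.18 in distal lung (unadjusted p = 4.80e-04). *COL2A1* had the third smallest p, with -2.62 against -1.61 (unadjusted p = 0.00124). *ADGRB3*, an adhesion receptor best known from brain, was the second, and the membrane mucins *MUC13* and *MUC15* were the fourth and the fifth, with -0.89 against 1.46, -3.40 against 2.11 and -1.55 against -0.67 (unadjusted p = 0.00103, 0.00129 and 0.00144), and none of these passed in proximal lung. *SFTPA1*, with 3.81 and 3.89, and *SFTPB*, with 1.52 and 1.48, had like values in both.

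The interval from 80 to 100 days was set beside the other ages, with CPM scaled over the 20 proximal libraries. Of 25 named genes that rose, the mean of 120 days was above that of 100 days in 19 in WT and 25 in CF. Of 19 named genes that fell it was lower still in 19 and 16. The share of all genes that moved in these ways was not counted, so this only describes the named genes. *SFTPA1* went on to 510.7 CPM at 120 days and 5394 CPM at term in WT, and to 1398 and 3112 CPM in CF. *COL2A1* went down to 1.82 CPM at 120 days in WT but to 36.8 CPM in CF, where replicates differed. The interferon-induced *OAS1* had means of 6.0, 41.0 and 29.5 CPM at 80, 100 and 120 days in WT and 5.50, 27.8 and 59.2 CPM in CF. *COL28A1* and *COL15A1* were lower at term than at 100 days in both genotypes. Differences to the other ages were not tested here.

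**Figure D5:**
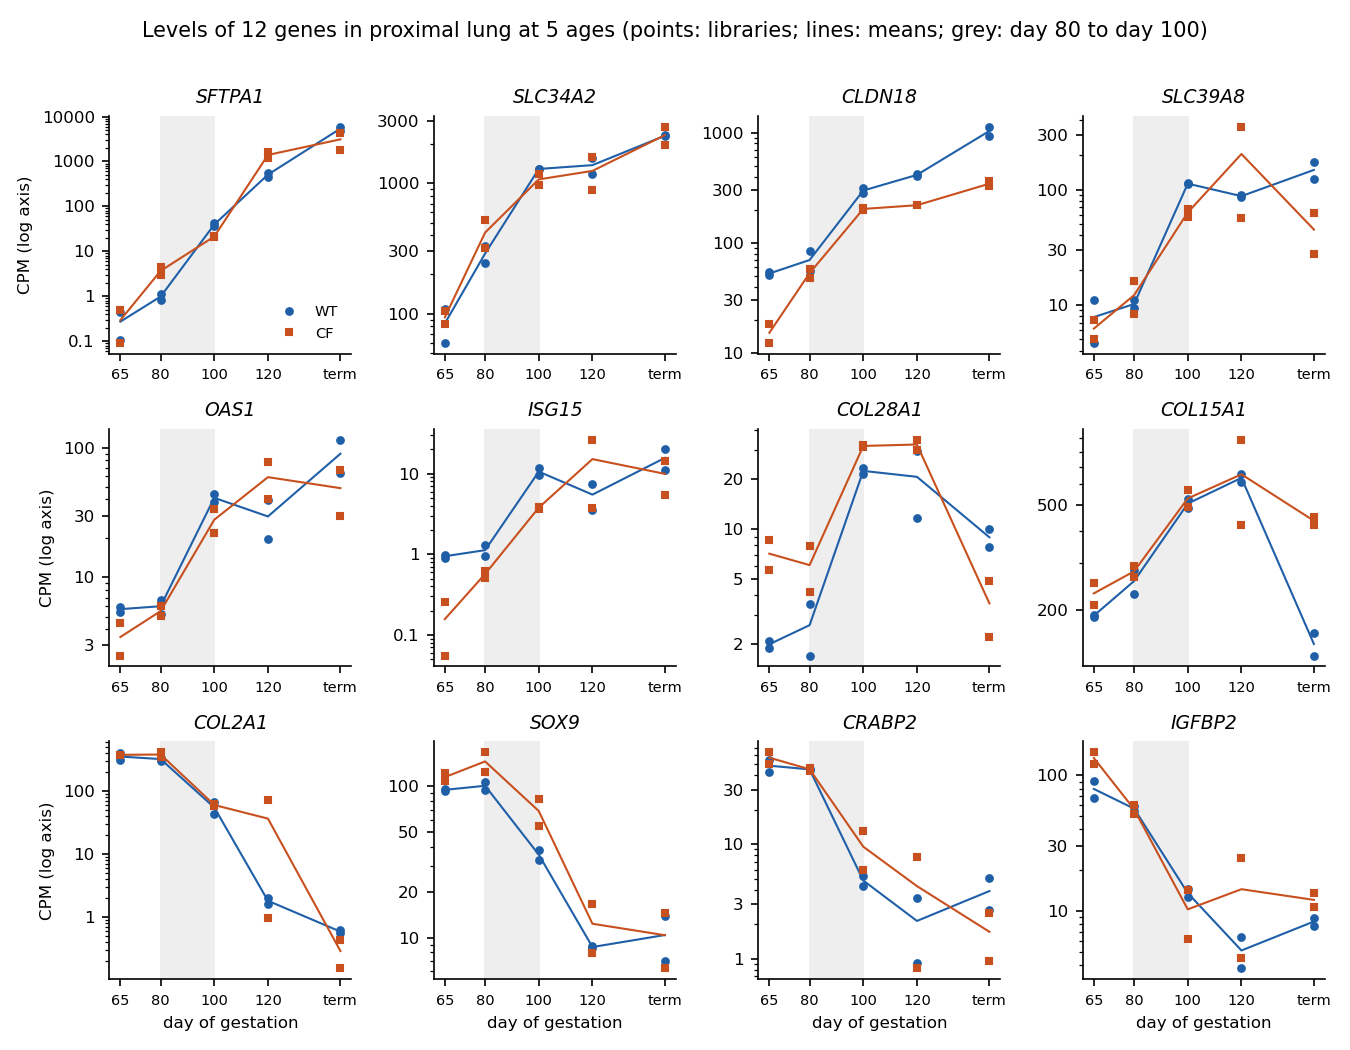
Normalized read counts (CPM, log axes) of 12 genes in proximal lung of WT (blue circles) and CF (orange squares) at 65, 80, 100 and 120 days and at term, with 1 point for each library and lines through the means. The grey band marks the interval from 80 to 100 days. *SFTPA1* climbs at every step, the interferon-induced *OAS1* and *ISG15* step up within the band, *COL28A1* and *COL15A1* fall back at term, and the genes of the bottom row go down within it.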

How the data were processed

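Poly(A) RNA from pieces of frozen lung of WT and CF sheep fetuses, proximal and distal, was sequenced as paired reads. The authors aligned them to Oar_v4.0 with STAR (2.6 in the submitters' processing notes, while the study's methods name another version) and counted them per gene with featureCounts 1.6.3, and deposited raw counts, the unit used here. The annotation release and strand setting are not given in the sources used here. How mates of a pair were counted is not given either. Of the counts from 1 to 20, 73.58% to 82.06% were even. Such an excess can arise where both mates of a fragment are counted, but its cause was not tested.

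Genes with few reads were removed with filterByExpr (minimum count 10, total 15). Counts were scaled by TMM and tested with the quasi-likelihood F test of edgeR 4.0.16 in R 4.3.3, with genotype as an additive term and Benjamini-Hochberg adjustment over all genes tested. The SE is the size of the log2 fold change over the square root of F. The difference between genotypes was tested as an interaction, and that between regions as an interaction in 16 libraries with the library pair as a block. Alternatives were DESeq2 1.42.0, RLE scaling, no filter, other call limits, glmTreat, summed or omitted libraries, thinned counts, other designs, a length correction and replicate blocks. On simulated counts, changes of 1 and 2 on the log2 scale were recovered in 39% and 90% of genes for the shared change, in 0% and 28% for the genotype difference and in 39% and 91% for the region difference.

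The genes named were the 12 that rose most and the 12 that fell most among those that passed, given an average log2 CPM of at least 1, a symbol and both later libraries on one side of both earlier ones in each genotype, a chosen part of the genes that the study names, up to 4 that passed in each list (up to 2 with the smallest p where none did) and the 5 with the smallest p for each difference. Other genes were named after their values were seen. Of 954 listed genes 887 were matched by symbol, 24 by gene ID through RefSeq and 43 not. The comparison and the 42 lists were chosen with earlier results of these data known. Exons of *RSAD2*, *COL28A1*, *CLSTN3*, *DIO2*, *ITGA7*, *SCNN1A* and *MUC15* overlap those of an antisense gene over a small part (0.2% to 5.7%), those of *HSPA1A* overlap LOC494436 on the same strand over 13.3%, and without a stated strand setting their reads may be shared. Lists are described by counts and medians, with no test of a list. Some genes are not reported here.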

Additional observations from a re-analysis of the deposited data

Results flagged for a closer look

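Some libraries lay far from the other 3 of the same age, in the sense of Dixon's test at its 95% limit. This was so for 14 of the 206 groups of 4 values tested, where chance alone flags about 1 in 20 groups. WT and CF libraries were pooled by age for this, so a gene that differs between genotypes is less likely to be picked out.

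At 80 days, 4 single genes had such a library. The basement membrane collagen *COL4A3* was at 7.511 CPM in CF replicate 1 and at 3.858 to 4.241 CPM in the other 3. The secretoglobin *SCGB3A2* was at 147.0 CPM in CF replicate 2 against 3.739 to 12.46 CPM. The tight junction scaffold *TJP1* was at 203.5 CPM in CF replicate 1 against 240.2 to 246.8 CPM, a gap that is small as a share of its level. The replication factor *UHRF1* was at 106.7 CPM in WT replicate 2 against 143.8 to 150.7 CPM. Among the lists of the same age, motile cilia genes summed to 267.6 CPM in WT replicate 1 against 591.6 to 633.3 CPM. Genes of the IGF axis summed to 1379 CPM in CF replicate 1 against 2828 to 3002 CPM. Collagens summed to 36030 CPM in CF replicate 2 against 15000 to 15840 CPM, and striated muscle genes to 590.7 CPM there against 28.64 to 63.55 CPM. The last pair, with *SCGB3A2*, comes from the library that stood apart from all others.

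At 100 days, 3 of the single genes had their high value in WT replicate 1. *SCGB3A2* was at 74.98 CPM there against 1.331 to 8.689 CPM, *BPIFB1* at 3.718 CPM against 0.1546 to 0.6684 CPM, and *MUC13* at 4.677 CPM against 0 to 0.6291 CPM. The membrane mucin *MUC15* was at 20.05 CPM in CF replicate 2 against 12.31 to 13.5 CPM. Myeloid genes summed to 212.0 CPM in CF replicate 1 against 284.8 to 299.0 CPM, and striated muscle genes to 90.79 CPM in CF replicate 2 against 23.5 to 30.34 CPM.

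Named genes that moved in opposite directions in the genotypes were 4, with both libraries of 100 days on one side of both of 80 days in WT and on the other side in CF. Among all genes tested, 2.71% did so. *BPIFB1* changed by 4.03 in WT and -3.93 in CF on the log2 scale, a difference of -7.953. *ADGRF1*, an adhesion receptor, changed by 4.12 and -3.31, a difference of -7.424. Both folds rest on levels near 0. *BPIFB1* was at 0 and 0.252 CPM in WT at 80 days and 0.205 and 0.155 CPM in CF at 100 days. *ADGRF1* was at 0.159 and 0.189 CPM in WT at 80 days and 0.061 and 0.11 CPM in CF at 100 days. *LUZP2* changed by -2.72 in WT and 0.95 in CF, a difference of 3.671, and *HSPA1A*, a heat shock protein, by 1.53 and -1.14, a difference of -2.668. The difference did not pass edgeR's quasi-likelihood test for any of them, with adjusted p = 0.988, 0.221, 0.166 and 0.166 in that order. Exons of *HSPA1A* overlap those of LOC494436 on the same strand over 13.3% of their length, so that its reads may be shared. *LUZP2*, *HSPA1A* and *ADGRF1* were picked for their small p for this difference.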

How the results depend on the processing

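Each of the 114 genes kept its direction in every setting tried. They were picked from these same libraries, so this only describes them. The count of 71 higher and 43 lower genes moved widely with the settings. It was 12 and 6 at an adjusted p of 0.01, 481 and 366 by DESeq2 (268 DEGs), 13 and 8 by glmTreat, and 13 and 5 with both WT libraries of 100 days summed. Removing a trend with gene length gave 172 and 84 (1 DEG). Without a filter on low counts there were 143 calls with 6 DEGs, with the bias-adjusted quasi-likelihood 151 with 1, and over all 20 proximal libraries 105 with 2. RLE scaling, thinning to equal depth and separate means per genotype gave 110, 117 and 141 calls. Leaving out 1 library gave 9 to 81 higher genes, 4 to 60 lower genes and 0 to 1 DEGs, with the fewest calls without WT replicate 2 at 100 days.

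With the replicate number as a block, 11 and 5 genes passed. By label the fetuses of 80 and 100 days are different animals, so no order of the numbers pairs them. The deviations of libraries with the same number correlated at -0.48 in WT and -0.66 in CF. With crossed numbers, chosen after those correlations were seen, 533 and 278 genes passed with 2 DEGs. That order was drawn from the same libraries, so these counts are no test of the change. Without CF replicate 2 at 80 days and with the WT libraries of 100 days summed, also chosen after seeing the data, 4 and 1 passed. For the difference between genotypes 0 genes passed, against 53 by DESeq2, 1 without a filter and 0 to 8 with 1 library left out, the 8 being without CF replicate 1 at 80 days and 1 each without WT replicate 1 at 80 days or CF replicate 1 at 100 days. For the difference between regions DESeq2 gave 2 in place of 0. The cause of these shifts was not tested.

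Among named genes, none that passed changed sign, and 26 values of 5 genes that did not pass did. *WFDC2* turned to 0.002207 with RLE, 0.004862 by DESeq2, 0.002788 over all 20 libraries, 0.0563 with the replicate block, 0.03125 with crossed numbers and 0.007364 without the length trend. *BPIFB1* turned to 0.05178 by DESeq2, 0.04854 with separate means, 0.04453 over all 20 libraries and 0.2247 after thinning. *SCGB3A2* turned to 0.05291 without CF replicate 2 at 80 days and with the WT libraries summed. Leaving out 1 library gave -0.306 to 0.2698 for *WFDC2*, -2.245 to 1.883 for *BPIFB1*, -3.711 to 0.755 for *SCGB3A2*, -0.2181 to 0.6276 for *HSPA1A* and -1.502 to 2.181 for *ADGRF1*. Of the other values of named genes under the alternatives, 930 stayed on their side of the limit, 309 lost it and 16 gained it. Counts in the gene lists moved by more than 1.5 times in 334 of 1764 cases. With 2 libraries in each group the precision is low, as 0% of simulated genotype differences of 1 on the log2 scale were recovered.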

Other observations

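Lists that the comparison above does not describe held no gene that passed. Of 20 erythroid genes, 19 had a positive log2 fold change (49.2% of all genes did), with a median of 0.87, or 0.85 in WT and 0.39 in CF, and sums of 104.9 to 121.7 CPM at 80 days and 145.7 to 167.1 CPM at 100 days. The smallest p in this list belonged to *ALAS2*, the first enzyme of heme synthesis in red cells (1.15, SE 0.21, adjusted p = 0.0576), and *TAL1*, a blood and vessel transcription factor (0.56, SE 0.14, adjusted p = 0.149). Of 25 complement genes, an unadjusted p below 0.05 was found for 5 with a higher and 3 with a lower level (5.76% and 5.59% of all genes), with a median of -0.07. *C5*, which starts the membrane attack complex, had -0.72 (SE 0.18, adjusted p = 0.135). Among 11 antigen presentation genes 10 had a positive value, with a median of 0.38, led by *CD74*, the chaperone of class II molecules (0.84, SE 0.20, adjusted p = 0.12). Among 22 elastic fiber genes the median was 0.12, and *MFAP4*, a glycoprotein of microfibrils, had 1.22 (SE 0.28, adjusted p = 0.107).

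Fibroblast genes had a median of -0.06 over 21, and within them *PDGFC* had -0.93 (SE 0.17, adjusted p = 0.0581) and *PDGFB* 0.75 (SE 0.14, adjusted p = 0.0643), both ligands of PDGF receptors. Among 17 oncofetal and imprinted genes the median was -0.29, with *TRIM71*, a target of let-7, at -1.07 (SE 0.32, adjusted p = 0.206). Medians of the remaining lists were 0.31 for 8 liver genes, 0.30 for 8 mast cell genes, 0.25 for 30 heat shock and immediate early genes, 0.16 for 25 lipid synthesis genes, 0.14 for 29 airway defense genes and chemokines, 0.04 for 29 hypoxia and glycolysis genes, 0.01 for 20 HOX genes and -1.40 for 10 genes of mesothelium and stratified epithelium. The last was -0.05 in WT and -2.01 in CF. When CF replicate 2 at 80 days was left out, the median turned to 0.07 for complement, 0.12 for fibroblast and -0.14 for HOX genes, and it was 0.27 for elastic fiber, -0.15 for oncofetal, 0.34 for airway defense, 0.16 for liver, 0.14 for hypoxia and -0.95 for mesothelium genes. Leukocyte examples were *LAPTM5*, a lysosomal protein of blood cells (0.59, SE 0.11, adjusted p = 0.0679), and *CD8B*, a chain of the CD8 receptor (-1.20, SE 0.33, adjusted p = 0.174).

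A pair of CF libraries, 1 of each age, had low values of the same genes, which were picked after their values were seen. *IGF2*, the fetal growth factor, was at 377.9 CPM in CF replicate 1 at 80 days and 460.8 CPM in CF replicate 2 at 100 days, and at 1417 to 2404 CPM in the other 6 libraries. *IGF1* was at 2.73 and 3.91 CPM in this pair and at 9.15 to 36.5 CPM in the others. *NR3C1*, the glucocorticoid receptor, was at 33.1 and 40.4 CPM against 85.4 to 139 CPM, and *MKI67* at 76.1 and 76.3 CPM against 115 to 203 CPM. By label these libraries come from different animals, and what they share was not tested.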
